A study of Mus musculus with 6 samples.

Results

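The small leucine-rich proteoglycans are a family of secreted matrix proteins built from leucine-rich repeats. Lum, Dcn, Bgn, Fmod, Ogn, Prelp, Aspn and Podn are the 8 genes of the family described here. They were taken by name, with no threshold on their values but with earlier results of these data known, and are 8 of the 48897 genes of the deposited table. All 8 passed the filter on low counts that left 19033 genes for testing.

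The RNA came from liver sinusoidal endothelial cells, the lining of the liver's capillaries, of C57BL/6 mice aged 7 to 8 weeks. The cells were taken 14 days after surgery, which was a partial hepatectomy (PHx, an operation that takes out a piece of the liver) in one group and a sham procedure (Sham) in the other, with 3 libraries in each group, numbered 1, 3 and 4. The labels list no genetic change in either group, and both groups shared the purification by magnetic beads against CD146, the protein encoded by Mcam. The labels do not say how much liver was removed, whether animals were pooled or whether libraries came from separate animals, so p-values measure only the spread between these libraries, which may be technical. Whole-number counts per library summed to between 38765116 and 51888481. The 14 markers of sinusoidal endothelium summed to between 20807 and 32715 CPM (counts scaled to the library's size) in PHx and between 38564 and 39865 CPM in Sham. By edgeR none of the 14 passed in either direction. 10 had lower levels with an unadjusted p below 0.05, against 4.73% of all tested genes. DESeq2 called 5 lower, against 0.703% of its tested genes. In 12 of the 14 every PHx library lay below every Sham library, against 9.96% of all tested genes. Mcam had a log2 fold change of 0.11 ± 0.15 (SE).

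Each family protein is a curved solenoid that sits on collagen fibrils and sets their spacing and width. Many carry sulfated sugar chains. Decorin and biglycan carry chondroitin or dermatan sulfate, and lumican, fibromodulin and the protein of Prelp belong to the class that can carry keratan sulfate. Several family proteins also bind growth factors of the TGF-beta family. In liver they are best known as products of stellate cells and fibroblasts, and the matrix of fibrotic liver is rich in them.

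The family is divided into classes by the spacing of 4 cysteines that come before the leucine-rich repeats. The coding stretches below hold this cluster and are shown because they tell the members apart. They were cut from GENCODE vM21 transcripts on GRCm38, the build that the submitters' processing notes name, and run 5′ to 3′ with the TGT and TGC codons for cysteine in capitals.

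Dcn, chr10:97483507-97483548, plus strand: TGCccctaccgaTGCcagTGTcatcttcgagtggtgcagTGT

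Bgn, chrX:73490979-73491020, plus strand: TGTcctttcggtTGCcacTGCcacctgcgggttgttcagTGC

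Aspn, chr13:49551865-49551906, plus strand: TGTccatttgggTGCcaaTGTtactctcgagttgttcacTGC

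Lum, chr10:97568353-97568403, plus strand: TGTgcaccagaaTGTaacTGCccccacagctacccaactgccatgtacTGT

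Fmod, chr1:134040449-134040499, plus strand: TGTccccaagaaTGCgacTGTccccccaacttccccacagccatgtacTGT

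Prelp, chr1:133915151-133915201, minus strand: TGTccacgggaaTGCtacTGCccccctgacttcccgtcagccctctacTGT

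Ogn, chr13:49615566-49615604, plus strand: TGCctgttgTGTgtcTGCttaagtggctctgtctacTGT

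Podn, chr4:108027042-108027086, minus strand: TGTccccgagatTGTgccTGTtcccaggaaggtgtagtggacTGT

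Dcn, Bgn and Aspn, the class I members, shared gaps of 3, 1 and 6 codons between the cysteine codons. Lum, Fmod and Prelp, of class II, shared gaps of 3, 1 and 9 codons. Ogn, of class III, had gaps of 2, 1 and 6 codons, and Podn had gaps of 3, 1 and 7. Exon numbers followed the same division, with 8 exons in the chosen transcripts of the class I genes, 3 in those of class II, 7 in Ogn and 12 in Podn. Over whole coding sequences Dcn and Bgn were the most alike pair, with 60.9% identical bases over the aligned length, and Bgn and Podn the least alike, with 40.1%. How the authors treated reads that map to several places was not stated in those notes.

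In the comparison of PHx with Sham, Lum and Fmod rose and no member was lower. Lum encodes lumican and Fmod encodes fibromodulin, class II proteins that bind the same region of type I collagen. Both had a level more than 3-fold that of Sham. Because the family was picked with earlier results known, the shares that follow are descriptions. The 2 called members are 25.0% of the family, against 0.846% of all tested genes that were called higher by edgeR's quasi-likelihood test (Benjamini-Hochberg adjusted p under 0.05). For genes called lower the share over all genes was 0.0158%. All 8 log2 fold changes were positive, with a median of 1.41, where the median over all tested genes was 0.03. 7 of the 8 members had an unadjusted p under 0.05, as did 7.93% of all tested genes in the higher direction and 4.73% in the lower direction. In 6 members (75.0%) every PHx library lay above every Sham library, as was so for 10.6% of all tested genes, and in no member was every PHx library below every Sham library, against 9.96% of all tested genes. DESeq2 called 6 members higher, against 4.02% of its tested genes, and none lower, against 0.703%. These are bulk libraries, so more cells that make these transcripts and more transcript per cell cannot be told apart.

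**Figure D1:**
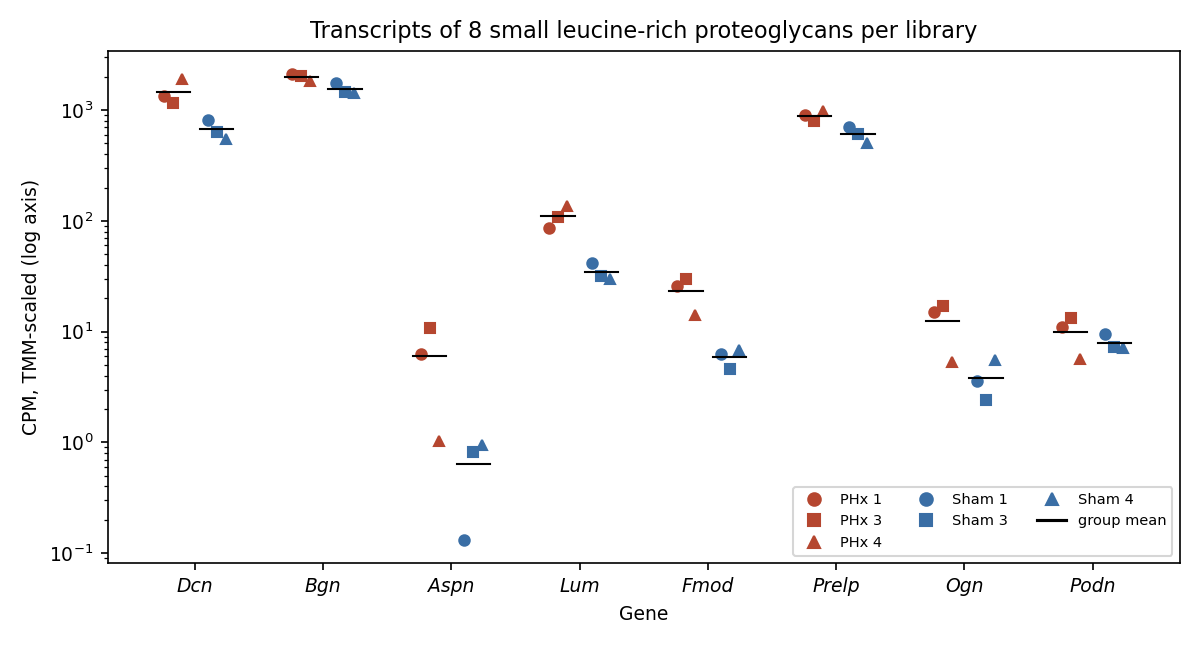
Level of each family member in the 3 PHx libraries (red, left of each pair) and the 3 Sham libraries (blue, right), in TMM-scaled CPM on a log axis, with symbols for the library numbers and black lines for group means. The PHx and Sham points overlap in Ogn and Podn, and PHx 4 is the lowest PHx point in Bgn, Fmod, Ogn, Aspn and Podn but the highest in Lum, Dcn and Prelp.

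Lum lies on chromosome 10 (97565501 to 97572703, plus strand, mm10). It had 85.5, 108.7 and 135.8 CPM in PHx 1, 3 and 4, against 41.4, 31.6 and 29.7 CPM in Sham 1, 3 and 4. The groups did not overlap, and PHx 4 was the highest library. Lum rose by 1.68 ± 0.20 on the log2 scale (SE, 3 libraries a group, edgeR adjusted p = 0.0196), or 3.215-fold. The call was lost without Sham 1 (adjusted p = 0.0512), without Sham 3 (0.137) and without Sham 4 (0.137). In those fits 34, 6 and 0 of all genes were called higher, against 161 with all libraries. The log2 fold change stayed between 1.505 and 1.83 over the fits that left out a library.

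Fmod lies on chromosome 1 (134037515 to 134048277, plus strand). It had 25.6, 30.2 and 14.1 CPM in PHx 1, 3 and 4, against 6.28, 4.60 and 6.77 CPM in Sham 1, 3 and 4. PHx 4 was the lowest PHx library and still above the highest Sham library. Fmod rose with a log2 fold change of 1.99 ± 0.30 (adjusted p = 0.0375), or 3.96-fold. Without PHx 4 the log2 fold change was 2.25 and the adjusted p 0.0067. The call was lost without PHx 1 (0.106), PHx 3 (0.0655), Sham 1 (0.148), Sham 3 (0.186) or Sham 4 (0.191). Those fits called 58, 82, 34, 6 and 0 of all genes higher, against 161 with all libraries.

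Prelp, the third class II gene, encodes a heparin-binding protein thought to anchor basement membranes to the connective tissue beneath. It lies on chromosome 1 (133910304 to 133929977, minus strand). Its levels were 895, 792 and 987 CPM in PHx 1, 3 and 4, against 707, 614 and 504 CPM in Sham 1, 3 and 4. The groups did not overlap, but the gap between PHx 3 and Sham 1 was smaller than the spread within either group. Prelp had a log2 fold change of 0.55 ± 0.16 and did not pass (adjusted p = 0.235).

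Among the class I genes, Dcn encodes decorin, which binds collagen and TGF-beta. Dcn lies on chromosome 10 (97479500 to 97518163, plus strand). It had 1346, 1156 and 1903 CPM in PHx 1, 3 and 4, against 816, 639 and 554 CPM in Sham 1, 3 and 4. Every PHx library was above every Sham library, with PHx 4 far above the other PHx libraries. The log2 fold change of 1.13 ± 0.23 did not pass (adjusted p = 0.0826).

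Bgn encodes biglycan, decorin's closest relative, which in free form is a ligand of the innate immune receptors encoded by Tlr2 and Tlr4. It lies on chromosome X (73483601 to 73495936, plus strand). Its levels were 2119, 2021 and 1829 CPM in PHx 1, 3 and 4, against 1740, 1464 and 1434 CPM in Sham 1, 3 and 4. The groups did not overlap, and the gap between the lowest PHx and the highest Sham library was narrow. The log2 fold change was 0.36 ± 0.15 (adjusted p = 0.378).

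Aspn encodes asporin, a class I protein that binds collagen and inhibits TGF-beta signalling in cartilage. It lies on chromosome 13 (49544443 to 49567565, plus strand). Its counts were 328, 527 and 49 in PHx 1, 3 and 4, against 5, 42 and 47 in Sham 1, 3 and 4. In CPM these were 6.34, 10.8 and 1.02 in PHx, against 0.133, 0.812 and 0.955 in Sham. PHx 4 stood level with Sham 3 and Sham 4, and PHx 1 and 3 stood well above all others. Aspn had the largest log2 fold change of the 8, 3.23 ± 1.01, and did not pass (adjusted p = 0.283).

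Ogn encodes osteoglycin, also named mimecan, a class III member found in many connective tissues. It lies on chromosome 13 (49608071 to 49624500, plus strand). Its levels were 15.1, 16.9 and 5.33 CPM in PHx 1, 3 and 4, against 3.55, 2.42 and 5.57 CPM in Sham 1, 3 and 4. The groups overlapped, because PHx 4 lay below Sham 4. The log2 fold change was 1.69 ± 0.49 (adjusted p = 0.237), and without PHx 4 it was 2.06 with an adjusted p of 0.0545.

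Podn encodes podocan, a family member first known from kidney podocytes. It lies on chromosome 4 (108014793 to 108032090, minus strand). It had 11.1, 13.2 and 5.60 CPM in PHx 1, 3 and 4, against 9.57, 7.21 and 7.13 CPM in Sham 1, 3 and 4. PHx 4 was the lowest of all libraries. The log2 fold change was 0.33 ± 0.32 (adjusted p = 0.693), and it was 0.064 without PHx 3 and 0.61 without PHx 4.

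**Figure D2:**
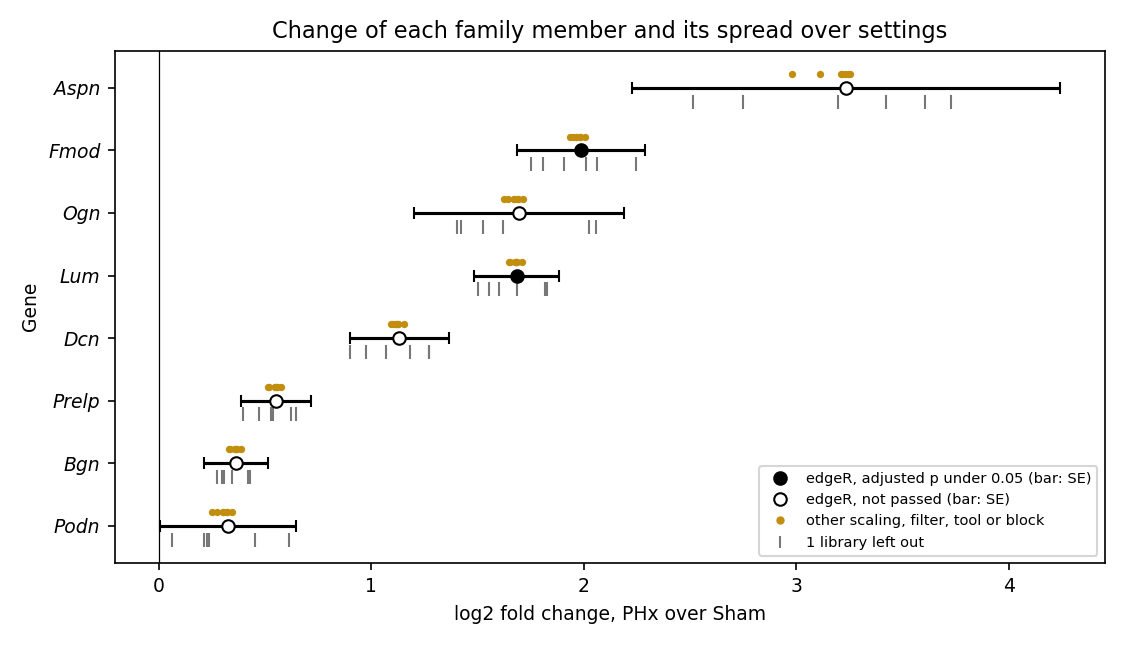
Log2 fold change of each family member, PHx over Sham, on the x axis, with SE as bars and filled circles for the 2 genes that passed edgeR's test. Dots above each circle show other scalings, filters, tools or the replicate term and ticks below it show fits without 1 library. Every dot and tick lies above 0, and those of Aspn spread from 2.51 to 3.73.

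Levels of different genes can be compared only per length, for which the deposited RPKM values (reads scaled by gene length and library size) were used. Bgn led in both groups, at 812 ± 90.0 RPKM in PHx and 613 ± 59.6 RPKM in Sham (SD, n = 3). Dcn followed at 706 ± 179 RPKM in PHx and 314 ± 59.3 RPKM in Sham, then Prelp at 226 ± 27.0 and 150 ± 23.8 RPKM in PHx and Sham, and Lum at 53.4 ± 10.6 and 16.2 ± 2.78 RPKM in PHx and Sham. The other members averaged under 10 RPKM in both groups. In PHx the order went on with Fmod at 8.27 RPKM, Ogn at 4.99, Aspn at 2.60 and Podn at 2.17, and in Sham with Fmod at 2.03, Podn at 1.68, Ogn at 1.49 and Aspn at 0.267. Neighbours in the PHx order whose libraries overlapped were Bgn and Dcn, and all from Fmod downwards. In Sham, Bgn and Dcn did not overlap, while Fmod overlapped with Podn and Podn with Ogn, and Ogn did not overlap with Aspn.

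The summed level of the family did not overlap between the groups. Nor did the shares of Dcn, Bgn, Prelp, Lum and Fmod in it, while those of Ogn, Aspn and Podn did. The summed RPKM of the 8 genes was 1891, 1611 and 1941 in PHx 1, 3 and 4, against 1256, 1062 and 977 in Sham 1, 3 and 4. The family's genes took between 0.408% and 0.483% of all counts in PHx and between 0.252% and 0.324% in Sham. Dcn made up between 33.6% and 46.1% of the summed RPKM in PHx and between 26.7% and 30.1% in Sham. Bgn's share was between 37.5% and 49.6% in PHx and between 54.2% and 58.4% in Sham. Lum held between 2.32% and 3.34% in PHx and between 1.43% and 1.55% in Sham. Fmod held between 0.252% and 0.645% in PHx and between 0.151% and 0.240% in Sham. Prelp, like Bgn, had a lower share in PHx, between 12.1% and 12.6%, and between 12.8% and 14.4% in Sham. The RPKM ratio of Dcn to Bgn was 0.751, 0.676 and 1.23 in PHx 1, 3 and 4, against 0.554, 0.516 and 0.456 in Sham 1, 3 and 4. PHx 4 was therefore the only library in which Dcn exceeded Bgn. These shares and ratios are descriptions without a test.

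**Figure D3:**
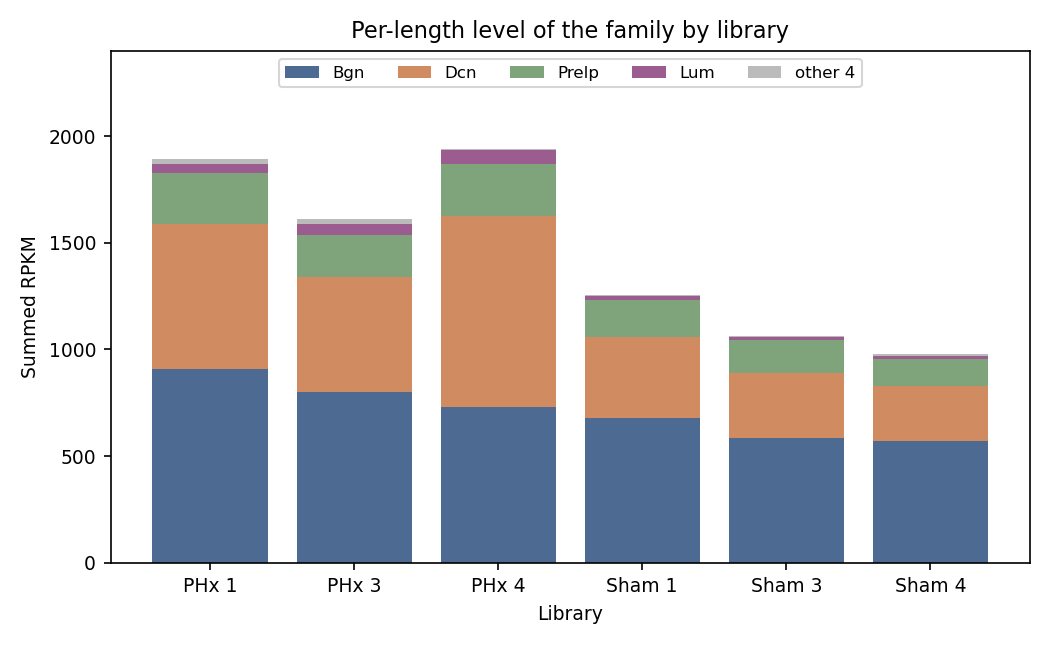
Summed RPKM of the 8 family members in each library, PHx left and Sham right, split into Bgn, Dcn, Prelp, Lum and the other 4 genes. The bars reach between 1611 and 1941 RPKM in PHx and between 977 and 1256 RPKM in Sham, and the Dcn block is taller than the Bgn block in PHx 4 alone.

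PHx 4 divided the family. In it Lum, Dcn and Prelp had their highest level of all libraries, while Bgn, Fmod, Ogn, Aspn and Podn had their lowest level among the PHx libraries. The values that follow are on the log2 CPM scale, relative to each gene's mean over 6 libraries. PHx 4 stood at 1.17 for Lum, 0.97 for Dcn and 0.43 for Prelp. It stood at 0.31 for Fmod and 0.065 for Bgn, still above their means, but at -0.25 for Ogn, -0.49 for Aspn and -0.61 for Podn. The same library held the most neutrophil marker counts. None of the 10 neutrophil markers passed, and DESeq2 called 0. At an unadjusted edgeR p under 0.05, 1 was higher and 0 were lower, against 7.93% and 4.73% of all tested genes. The markers summed to 596, 25.2 and 4102 CPM in PHx 1, 3 and 4. In Sham 1, 3 and 4 the sums were 282, 151 and 24.1 CPM. Among them S100a9 had a log2 fold change of 2.93 ± 1.80 and Ngp one of 4.19 ± 1.91. Their part in these levels was not tested.

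Some markers of stellate cells, portal fibroblasts, mesothelial cells and smooth muscle passed in the same comparison. For scale, edgeR called 0.846% of all tested genes higher, DESeq2 4.02% of its tested genes and limma-voom 94 of 19033. Of 16 stellate cell markers 6 rose by edgeR and 10 did not pass, with a median log2 fold change of 1.02, while DESeq2 called 12 and limma-voom 3. Their summed level was between 4335 and 4981 CPM in PHx and between 2196 and 3150 CPM in Sham. Des, an intermediate filament gene, rose by 1.30 ± 0.15, Hand2, a transcription factor, by 1.14 ± 0.14, Lrat, which esterifies vitamin A for storage, by 0.92 ± 0.14, and Rgs5, a regulator of G protein signalling, by 1.58 ± 0.25 on the log2 scale. The stellate count was 1 without PHx 1, 3 without PHx 3, 1 without Sham 1 and 0 without Sham 3 or Sham 4. Over all genes those fits called 58, 82, 34, 6 and 0 higher, against 161 with all libraries. The lists did not share an order within PHx. By mean log2 CPM the stellate list stood at 7.37, 7.20 and 7.55 in PHx 1, 3 and 4, highest in PHx 4 as were Lum, Dcn and Prelp. The mesothelial list stood at 4.03, 3.75 and 3.27, the smooth muscle list at 3.55, 3.60 and 2.75 and the portal fibroblast list at 4.19, 4.11 and 4.10 in the same libraries. Among the PHx libraries the mesothelial and smooth muscle lists were lowest in PHx 4, as were Bgn, Fmod, Ogn, Aspn and Podn. The portal fibroblast list was nearly level by this measure. Its summed CPM was lowest in PHx 3, at 592, against 861 in PHx 1 and 662 in PHx 4.

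Of 15 portal fibroblast markers 3 rose, Loxl1, a lysyl oxidase relative, by 2.15 ± 0.23, Gas1, a membrane protein that binds Hedgehog, by 1.73 ± 0.22, and Thy1 by 1.49 ± 0.20, and the list's median was 1.49. DESeq2 called 10 of them and limma-voom 3. The shares over all tested genes called higher were 0.846% by edgeR and 4.02% by DESeq2. Their summed level was between 592 and 861 CPM in PHx and between 270 and 349 CPM in Sham. The count was 1 without PHx 1, PHx 3 or Sham 1 and 0 without Sham 3 or Sham 4. Higher calls over all genes fell from 161 to 58, 82, 34, 6 and 0 in those fits, in that order. Of 11 mesothelial markers Upk1b (2.88 ± 0.42) and Msln (2.53 ± 0.38) rose, with summed levels of 133.5 to 236 CPM in PHx and 71.1 to 93.1 CPM in Sham, and DESeq2 called 6 and limma-voom 1. Of 7 tested smooth muscle markers Acta2 (1.55 ± 0.20) and Tagln (1.98 ± 0.27) rose, with summed levels of 200.4 to 292 CPM in PHx and 193 to 226 CPM in Sham. The smooth muscle sums overlapped, since PHx 4 was below Sham 3, and DESeq2 called 3 and limma-voom 1. By edgeR the mesothelial and smooth muscle calls were all lost without any 1 of PHx 1, PHx 3, Sham 1, Sham 3 or Sham 4, each leaving a count of 0. No marker of these 4 lists was at 0 in all libraries. The part of these cells in the family's levels was not tested.

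Of the 10 hepatocyte and 7 Kupffer cell markers none passed, 0 of them had an unadjusted p under 0.05 and DESeq2 called 0. At that unadjusted p 7.93% of all tested genes were higher and 4.73% lower. The hepatocyte markers summed to between 777 and 1991 CPM in PHx and between 1551 and 2062 CPM in Sham, with Alb at -0.45 ± 0.28 and Trf at 0.19 ± 0.40 on the log2 scale. The Kupffer cell markers summed to between 94.5 and 149 CPM in PHx and between 103 and 434 CPM in Sham, with Csf1r at -0.35 ± 0.40 and Cd5l at -1.78 ± 0.79. Stab1 and Stab2, the scavenger receptors of sinusoidal endothelium, were at -0.78 ± 0.24 and -0.61 ± 0.21.

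**Figure D4:**
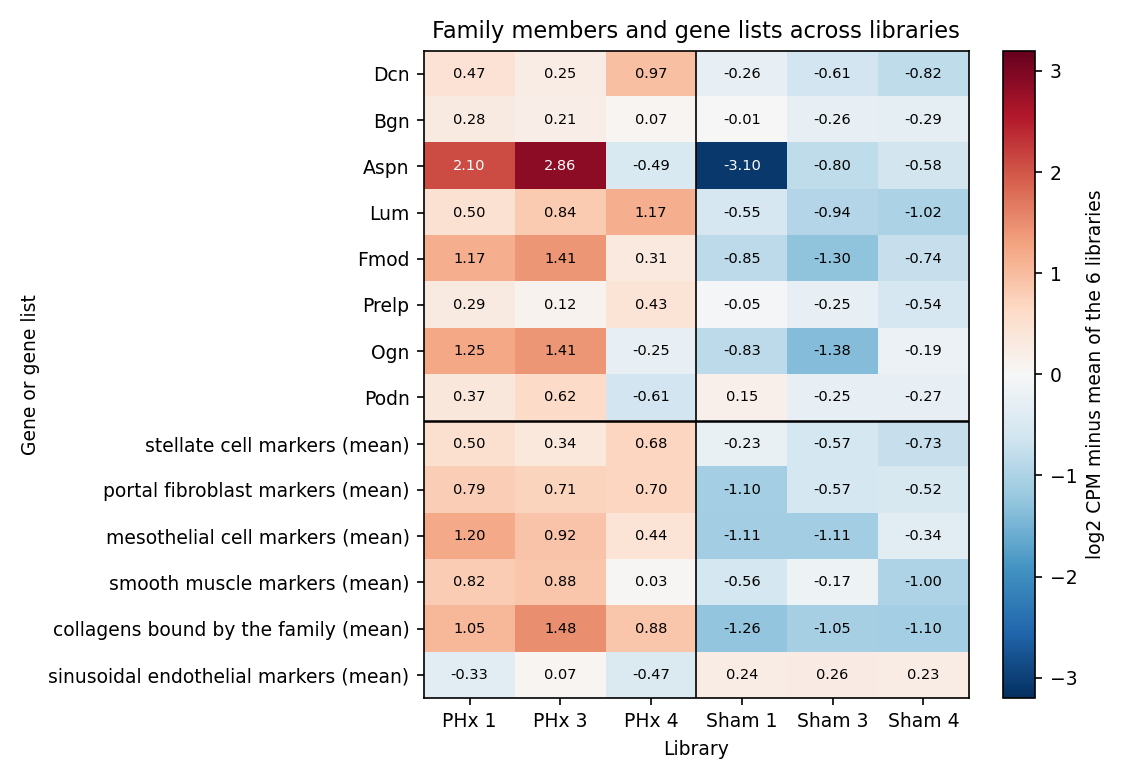
Level of each family member (above the line) and mean level of 6 gene lists (below it) in each library, as log2 CPM minus the mean of the 6 libraries, with red above and blue below that mean and PHx left of Sham. The values of Ogn, Aspn and Podn in PHx 4 are -0.25, -0.49 and -0.61, while Lum, Dcn, Bgn, Fmod and Prelp are above their means in every PHx library. So are the 4 marker lists of stellate, portal fibroblast, mesothelial and smooth muscle cells, the last only narrowly in PHx 4.

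Genes with the pattern most like that of a member were sought among 11331 tested genes with at least 5 CPM in the higher group, by the root-mean-square difference of mean-centred log2 CPM over the 6 libraries. For Lum they were Adamts2, a procollagen protease (0.09 on the log2 scale), Rgs5 (0.11) and Thbs3, a thrombospondin (0.12). For Dcn they were Epha7 (0.05), Colec11, a lectin of the stellate list (0.06), and Ddr2, a collagen receptor (0.09). For Fmod they were Sfrp1, a secreted Wnt antagonist (0.20), Cadm4 (0.21) and Ptgis, the prostacyclin synthase (0.22). For Aspn the nearest genes lay farther off, with Sfrp2 (0.44), Tnc, the gene of tenascin C (0.61), and Col12a1 (0.65). For Ogn the nearest were Cpz (0.28), the mesothelial marker Upk3b (0.31) and Ptgis (0.34). Smo, Tspan3 and Loxl4 (0.06 to 0.07) were nearest to Bgn, Cdc42bpg, Tyro3 and Rab34 (0.06 to 0.08) to Prelp, and Ctnnal1, Abi3bp and Slc18a2 (0.16) to Podn.

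Most of the family lies in clusters on the chromosomes, where neighbours could be compared. On chromosome 10 Dcn and Lum are 47338 bases apart on the same strand, with Kera, the gene of keratocan, 34252 bases beyond Lum. Kera, known from the cornea, averaged 0 CPM in PHx and 0.027 CPM in Sham and was not tested, beside the 110.0 ± 25.2 CPM in PHx and 34.2 ± 6.26 CPM in Sham of Lum (SD, n = 3). On chromosome 13 the order is Ecm2, Aspn, Omd and Ogn, with gaps of 11654, 12189 and 15459 bases. Ecm2 had 22.7 ± 6.79 CPM in PHx and 24.6 ± 0.63 CPM in Sham, a log2 fold change of -0.11 ± 0.22 that was 0.11 without PHx 4. Omd had 0.380 CPM in PHx and 0.174 CPM in Sham, and Optc, 592 bases from Prelp, had 1.24 CPM in PHx and 0.851 CPM in Sham, so both were scarce.

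Aspn and Ogn lie inside Cenpp, a centromere gene on the opposite strand. Prelp overlaps an antisense gene with 2.63 CPM in PHx and 1.98 CPM in Sham. Cenpp had 1.37 CPM in PHx and 0.848 CPM in Sham, with a log2 fold change of 0.69 ± 0.39 (adjusted p = 0.500). It is not known whether counting used strand, and only whole gene spans, not exons, were compared. Whether reads of these partners entered the counts of the members was therefore not tested. In GENCODE vM21 a long Podn transcript also overlaps Scp2, a gene for lipid transfer, on the same strand. The deposited coordinates leave 11740 bases between them. Scp2 had 104 CPM in PHx and 106 CPM in Sham, beside 9.98 CPM in PHx and 7.97 CPM in Sham of Podn. The Aspn counts in Sham were of the same order as those of Cenpp.

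RefSeq promoter sequences on GRCm38.p6, windows of 300 bases around the start of a RefSeq transcript, were at hand for 6 of the 8 members, all except Lum and Dcn. RefSeq and the deposited table can place that start differently. The starts are the same for Bgn and Aspn, and the Fmod start of the window, 134037254, lies 261 bases upstream of the deposited one. For Prelp the window's start, 133921401, lies 8576 bases inside the deposited gene, and the starts are 56 bases apart for Ogn and 136 and 1104 for the listed starts of Podn. Fmod, which rose, and Bgn, the most abundant member, are shown, with matches to the searched motifs in capitals.

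Fmod, chr1:134037004-134037303, plus strand: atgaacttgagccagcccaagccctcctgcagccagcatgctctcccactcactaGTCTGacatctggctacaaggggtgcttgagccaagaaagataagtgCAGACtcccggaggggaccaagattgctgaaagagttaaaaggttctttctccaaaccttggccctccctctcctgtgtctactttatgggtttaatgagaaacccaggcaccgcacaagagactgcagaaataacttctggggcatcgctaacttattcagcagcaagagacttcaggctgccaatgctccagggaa

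Bgn, chrX:73483351-73483650, plus strand: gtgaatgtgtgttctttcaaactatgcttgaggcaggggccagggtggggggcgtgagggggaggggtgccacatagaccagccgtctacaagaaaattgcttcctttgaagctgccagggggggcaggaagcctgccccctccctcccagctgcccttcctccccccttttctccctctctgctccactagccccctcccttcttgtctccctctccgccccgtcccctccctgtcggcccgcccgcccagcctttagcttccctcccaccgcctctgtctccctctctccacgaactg

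Each motif was searched on both strands. The TATA box, TATAAA, was present in 13.6% of all 32851 promoters of the table. The motif of AP-1 factors, TGANTCA, was present in 7.81%. The motif of SMAD factors, CAGAC, was found in 49.6%. For TEAD factors the letters CATTCC were sought and were found in 14.7%. The capitals in the Fmod window are 2 matches to CAGAC, and the Bgn window held none of the 4 motifs. Aspn and Ogn held 2 matches each to TATAAA, which overlap in Ogn, and Ogn held 1 to CATTCC. Prelp held 3 matches to CAGAC, and Podn had 1 in its second listed promoter. The share of G and C was 63.7% in the Bgn window and 51.0% in that of Fmod, where the median of all promoters was 52.7%. A match is a description of letters and says nothing of a factor.

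Collagens that the family binds were among the called genes. Of 10 tested collagen chain genes 6 rose by edgeR, against 0.846% of all tested genes. DESeq2 called 10 higher, against 4.02% of its tested genes, and limma-voom called 7. None was called lower by any of them, against 0.0158% of all genes by edgeR and 0.703% by DESeq2. All 10 had every PHx library above every Sham library, against 10.6% of all tested genes. The median log2 fold change of the 10 was 2.06. Col3a1, Col5a1, Col6a1 and Col6a2 rose by 2.51 ± 0.18, 2.16 ± 0.17, 1.78 ± 0.15 and 1.97 ± 0.18 on the log2 scale. Their median exceeded the family's 1.41, and a difference between the lists was not tested. The count was 4 without Sham 1, 1 without Sham 3 and 0 without Sham 4. Over all genes 34, 6 and 0 were called higher in those fits, against 161 with all libraries.

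Of 14 tested genes for proteases and helpers that process family proteins, Bmp1 and Mmp2 rose by edgeR, while DESeq2 called 4 higher. Over all tested genes, edgeR called 0.846% higher and 0.0158% lower, and DESeq2 called 4.02% and 0.703%. Bmp1 encodes the protease that removes the propeptides of procollagens, biglycan and osteoglycin, and had 58.8 ± 3.88 CPM in PHx and 16.6 ± 3.25 CPM in Sham, a log2 fold change of 1.82 ± 0.16 (adjusted p = 0.00624). Mmp2, a gelatinase, had 80.6 ± 20.3 CPM in PHx and 19.3 ± 0.43 CPM in Sham, with 2.06 ± 0.18. Without Sham 4 neither passed (adjusted p = 0.0687 and 0.0797), and without Sham 3 Mmp2 did not (0.0601). Higher calls over all genes were 0 without Sham 4 and 6 without Sham 3. Among 14 growth factors and receptors bound by decorin or biglycan edgeR called Tgfb3 alone, a TGF-beta ligand, with 21.5 ± 4.27 CPM in PHx and 7.504 ± 0.49 CPM in Sham and a log2 fold change of 1.52 ± 0.18. It passed in 1 of the 6 fits without a library, the one without PHx 4. DESeq2 called Tgfb3 and Tgfb2 higher and Kdr lower. Tgfb2 and Kdr are named after their values were seen. Tgfb2, another ligand, was at 1.03 ± 0.26, and Kdr, a VEGF receptor of endothelium that is also in the sinusoidal list, at -0.71 ± 0.23 by edgeR.

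By edgeR no enzyme that builds the sugar chains was called, except 1 chondroitin gene in the fit with no filter on low counts. Of 21 tested genes for making chondroitin and dermatan sulfate, 3 were higher and 3 lower at an unadjusted p under 0.05. The shares over all tested genes were 7.93% higher and 4.73% lower. DESeq2 called 2 of the 21 higher, against 4.02% of its tested genes, and the median log2 fold change was -0.12. Chst15, a chondroitin sulfotransferase and the most abundant of them, was at -0.42 ± 0.15, and Dse, which makes dermatan from chondroitin, at -0.33 ± 0.17. Chpf, a chondroitin polymerizing factor picked after its values were seen, was at 1.19 ± 0.21 (adjusted p = 0.0539). Of 11 tested genes for keratan sulfate, 3 were higher and 1 lower at an unadjusted p under 0.05, DESeq2 called 1 higher, and St3gal1 and Chst2 were at -0.11 ± 0.10 and -0.30 ± 0.16.

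Other relatives were not called either by edgeR with all libraries. At an unadjusted p under 0.05, 7.93% of all tested genes were higher and 4.73% lower, and DESeq2 called 4.02% of its tested genes higher. Of 9 tested family genes outside the 8, 1 was higher at an unadjusted p under 0.05 and by DESeq2, and none was lower. That gene was Nepn, picked after its values were seen, with 1.88 ± 0.997 CPM in PHx and 0.443 ± 0.17 CPM in Sham and a log2 fold change of 2.09 ± 0.53 (adjusted p = 0.160). Tsku, the gene of tsukushi, was at 0.29 ± 0.23. Of 10 tested matrix proteoglycans of other families, 3 were higher at an unadjusted p under 0.05 and by DESeq2. These were Vcan at 2.33 ± 0.49, Spock2 at 1.18 ± 0.30 and Prg4 at 1.04 ± 0.26, named after their values were seen. Without PHx 4 edgeR called 2 genes of this list higher. Hspg2, the gene of the basement membrane proteoglycan perlecan, was at -0.44 ± 0.22, and Agrn, the gene of agrin, at 0.10 ± 0.12.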

How the data were processed

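The deposited table gave whole-number counts and RPKM values per gene for 6 libraries of liver sinusoidal endothelial cells. The authors' processing before counting used bcl2fastq and TopHat2 2.0.13 on mm10 (GRCm38), per the submitters' processing notes. The counting program, annotation and strand setting are not given in the sources used here. The deposited RPKM equalled counts scaled by gene length and summed counts in 100% of 293382 values, within a relative error of 1e-06. That check was the single use of the deposited gene length, in bases. 27 gene names read as dates, and no listed gene is among them.

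The test on counts was that of edgeR 4.0.16 under R 4.3.3 (TMM, filterByExpr, robust quasi-likelihood F-test, group as the only term), and adjusted over 19033 genes. The SE of a log2 fold change is its size over the root of F. CPM was scaled by TMM, with a prior count of 2 on the log2 scale. The limit for a gene without reads, 3 counts, equals 0.058 to 0.0795 CPM by library and covers counting error only. Coding sequences were aligned globally with Biopython 1.88, with end gaps free.

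Members and gene lists were chosen with earlier results of these data known. Genes outside the family were named by a rule: up to 4 called genes of each list by adjusted p, or the 2 most abundant, the 2 nearest gene models on each side of a member and any overlapping one (of these the scarce ones are not all named), and the 3 genes nearest in pattern. In simulated counts (18464 genes) the model recovered 32% of changes of log2 size 1 and 86% of size 2, with 10 false among 128 calls. The simulated spread followed the trend with level alone, without spread particular to a gene or library, and scarce genes were given no change. These rates therefore need not hold for the real libraries. Alternatives were other scalings and filters, DESeq2 1.42.0, limma-voom (limma 3.58.1), the replicate number as a block, and each library left out. No library was a copy of another (chi-square per degree of freedom at least 49.9 within groups).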

Additional observations from a re-analysis of the deposited data

How the results depend on the processing

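All 8 members kept a positive log2 fold change in all 13 alternatives. The number called higher was 2 with the other scalings and the stricter CPM filter, 3 with no filter, 6 with DESeq2 (where 4.02% of all genes were called higher), 1 with limma-voom and 0 to 2 when a library was left out. None was called lower in any alternative. DESeq2 called Dcn (1.13, adjusted p = 0.000142), Ogn (1.69, 0.00912), Prelp (0.55, 0.0459) and Aspn (3.24, 0.00264), and the fit with no filter called Dcn (1.10, 0.0104). Limma-voom lost Fmod (1.95, 0.097). Leaving out a library gave log2 fold changes of 1.505 to 1.83 for Lum, 0.90 to 1.27 for Dcn, 0.27 to 0.43 for Bgn, 1.75 to 2.25 for Fmod, 1.41 to 2.06 for Ogn, 0.39 to 0.65 for Prelp, 2.51 to 3.73 for Aspn and 0.064 to 0.61 for Podn. Higher and lower calls over all genes were 359 and 30 with no filter, 721 and 126 with DESeq2, and 94 and 1 with limma-voom. Higher calls were 58, 82 and 160 without PHx 1, 3 and 4. They were 34, 6 and 0 without Sham 1, 3 and 4. Lower calls were 0 to 9 without a library. For these the cause was not tested, and the fits without a library also hold fewer samples. The replicate block left 0 members called, with Lum at 1.68 (adjusted p = 0.138) and Fmod at 1.94 (0.193), and 14 higher and 1 lower gene in all. Deviations from the group means correlated at -0.09, -0.23 and 0.03 within the numbers 1, 3 and 4, and none had its own number as best match. With 3 libraries a group, these values cannot decide whether equal numbers mark a shared animal, day or batch. Outside the family, alternatives added after the data were seen kept every named gene that was called at a positive log2 fold change. For gene lists, DESeq2 moved the calls of collagens, proteases, other proteoglycans and stellate, portal fibroblast and mesothelial markers to 10, 4, 3, 12, 10 and 6, where edgeR gave 6, 2, 0, 6, 3 and 2. The replicate block left 3 collagens, 2 proteases and 0 of those markers, and the fit with no filter called 4 proteases and 5 portal fibroblast markers. Signs of uncalled genes turned for Csf1r without Sham 1 (0.15; range without a library -0.65 to 0.15), Ecm2 without PHx 4 (0.11; -0.30 to 0.11), Mcam without Sham 4 (-0.052; -0.052 to 0.17) and Trf without PHx 4 (-0.12; -0.12 to 0.55). Settings meant for a table with RPKM only were not run, because the table holds counts. Depth limits Aspn most, with 5 counts in Sham 1.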
